A study of Mus musculus with 24 samples.

Results

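The arrays described here compare mice labelled as Arg1 knockouts that received a viral treatment (TR) with untreated Arg1 knockouts (KO). Both groups are labelled as lacking the same gene, and the comparison asks which genes differ in frontal lobe between treated and untreated knockouts. It rests on the 6 arrays of the only batch that holds both groups, called batch 3 here, out of 24 arrays in the series. It has 3 TR and 3 KO mice, all at postnatal day 14, with 1 array per mouse. The same batch holds 3 heterozygotes (HE) and 3 wild types (WT), also at day 14, which entered the fit to estimate the spread between arrays. The labels do not name the virus, its cargo, its dose or the age at treatment, and they give neither the strain nor the sex of the mice.

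Arginase 1 splits arginine into ornithine and urea, the closing step of the urea cycle in the liver. Without it arginine builds up and nitrogen is disposed of poorly. The study's title places the deficiency in the liver and the damage in the myelin of the young brain. Frontal lobe at this age is a mixture of neurons, astrocytes, vessels, microglia and oligodendrocytes that are beginning to wrap axons. In such a mixture, fewer cells of a type and less RNA per cell cannot be told apart.

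Values are log2 expression levels, 1 per Ensembl gene and array, for 18057 genes. The files pair none of these IDs with a gene symbol, and neither do the reference tables used here (0 of 18057 IDs matched). Genes are therefore given by ID, no function is attached to them, and the lists of pathway genes and cell type markers prepared for this tissue could not be applied. The tissue label could not be checked against marker genes for the same reason.

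The arrays of batch 3 had medians of 6.71 to 6.79 log2, and any 2 of them correlated across genes at 0.988 to 0.997. Each KO array left the range of the other groups on the first or the second principal component. The first principal component of the 12 arrays carried 24.3% of their variance. On it KO replicate 1 lay at -33.98 and KO replicate 2 at -12.27. KO replicate 3 lay at 1.20, inside the range of -0.80 to 10.17 of the 9 TR, HE and WT arrays. On the second component those 9 arrays ran from -5.34 to 10.28. There KO replicate 3 lay at -19.55 and KO replicate 2 at -12.41, both outside, and KO replicate 1 at 4.71, inside. Sample titles also set KO apart from the other groups of the batch. KO replicates 1 and 2 carry the letters BB, KO replicate 3 carries CC, and all 9 other arrays of the batch carry EE. The labels do not explain the letters. If they mark litters or cages, that origin and the lack of treatment cannot be told apart, because no TR array shares letters with a KO array.

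ENSMUSG00000019987, singled out after its values were seen, showed the widest gap in the series between WT arrays and all others, and it did not separate TR from KO. Its level was 6.98, 6.87 and 7.40 in the KO arrays and 7.22, 7.37 and 7.45 in the TR arrays of batch 3. The WT arrays read 4.31, 3.94 and 4.80, and the HE arrays 6.41, 6.83 and 6.89. TR and KO overlapped, while both lay above every WT array. The TR minus KO difference was 0.27 ± 0.198 log2 (SE, 3 arrays per group; limma adjusted p 0.601). The sources used here do not say whether this ID is the targeted gene or where its probes lie, so these levels, higher in the arrays labelled KO, TR and HE than in WT, are no check of the knockout labels.

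In TR against KO, 185 of 18057 genes differed, with 89 higher and 96 lower in TR. This is 1.02% of all genes, 0.493% higher and 0.532% lower. With only the 6 TR and KO arrays in the fit, 26 genes were called. A gene was called at a limma p, adjusted by Benjamini-Hochberg over all genes, under 0.05. The 89 higher genes differed by a median of 0.54 log2, or 1.45-fold, and the 96 lower genes by -0.66 log2, or 1.58-fold. The smallest called difference was 0.27 log2. A difference of at least 1 log2 was reached by 6 genes that were higher in TR and by 15 that were lower. After centring each array on its median, 70 genes were higher and 120 lower, which moves the share of higher calls from 48.1% to 36.8%. All 185 had TR and KO values that did not overlap, a property they shared with 16.7% of all genes (3024 genes). Of all genes, 10.3% lay higher in every TR array than in any KO array and 6.47% lower.

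Called genes sat among the brighter ones. Genes were divided into 4 equal bins by mean level. In the dimmest bin, with levels up to 4.95 log2, 10 genes (0.221%) were called, and 31 (0.687%) in the next. The third bin gave 71 (1.57%) and the brightest, above 8.55 log2, gave 73 (1.62%). Large differences were not always called. A further 6 genes were at least 1 log2 higher in TR and 26 at least 1 log2 lower without passing the test, and in 18 of these 32 the groups overlapped. The widest of all was -3.78 log2, in a gene whose KO arrays had an SD of 3.15 log2 against 0.22 in TR (n = 3 each; limma adjusted p 0.0857).

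**Figure D1:**
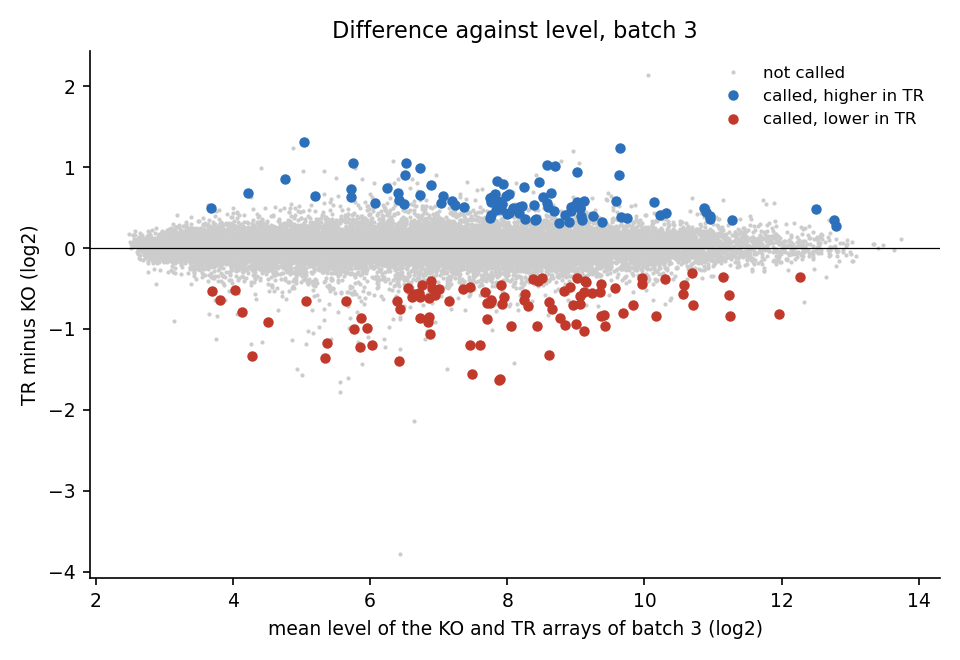
Each point is a gene, plotted by its mean level over the 6 KO and TR arrays of batch 3 (log2, horizontal) and its TR minus KO difference (log2, vertical). The 89 genes called higher in TR are blue, the 96 called lower are red and the rest grey, and the largest called differences lie below 0.

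The 2 genes with the highest differences among those called were ENSMUSG00000053835 and ENSMUSG00000037071, and the 2 with the lowest were ENSMUSG00000019577 and ENSMUSG00000030711. They follow a ranking fixed for genes with a symbol, and as IDs they were picked after their values were seen.

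ENSMUSG00000019577 had levels of 9.67, 8.26 and 8.17 in the KO arrays and 7.11, 7.11 and 6.98 in the TR arrays. KO replicate 1 was far above the other KO arrays, and each KO array still exceeded every TR, HE and WT array of the batch. TR lay below KO by -1.63 ± 0.277 log2 (SE, 3 arrays per group; 3.09-fold; limma adjusted p 0.0110). The 95% interval ran from -2.22 to -1.04. Without KO replicate 1 the difference was -1.14, the smallest of its 14 alternatives, whose limma adjusted p ran from 0.000650 to 0.121. The WT mean was 7.16 ± 0.239 and the TR mean 7.07 ± 0.073 (SD, n = 3). Their difference was -0.09, with a 95% interval of -0.68 to 0.50.

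ENSMUSG00000030711 had levels of 9.30, 8.55 and 8.26 in KO and 6.89, 6.87 and 7.49 in TR. The groups did not overlap, and TR replicate 3 was the closest to KO. TR lay below KO by -1.62 ± 0.227 log2 (SE, 3 arrays per group; 95% interval -2.11 to -1.14; limma adjusted p 0.00456). With only the 6 TR and KO arrays in the fit, the limma adjusted p was 0.0536, the highest of 14 alternatives that started at 0.000501.

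ENSMUSG00000037071 went the other way, at 9.51, 9.13 and 8.41 in KO and 10.18, 10.29 and 10.31 in TR. Here KO replicate 3, not replicate 1, was the farthest from TR, and the TR arrays had an SD of 0.070 log2 against 0.558 in KO (n = 3 each). TR exceeded KO by 1.24 ± 0.183 log2 (SE, 3 arrays per group; 95% interval 0.85 to 1.63; limma adjusted p 0.00529). The limma adjusted p was 0.0868 with only the 6 TR and KO arrays, the highest of its 14 alternatives, which started at 0.000288.

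ENSMUSG00000053835 had the highest difference and an unusual pattern in the controls. Its level was 4.46, 4.44 and 4.28 in KO and 5.59, 5.75 and 5.75 in TR, while the WT arrays read 4.29, 5.70 and 4.68. WT arrays thus lay at both the KO and the TR level. The HE arrays, at 5.45, 4.92 and 5.62, were between KO and the highest TR array. TR exceeded KO by 1.30 ± 0.267 log2 (SE, 3 arrays per group; 95% interval 0.73 to 1.88; limma adjusted p 0.0343). The call was lost in 8 of 13 alternatives, among them the omission of any TR array, with a limma adjusted p from 0.000942 to 0.131.

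**Figure D2:**
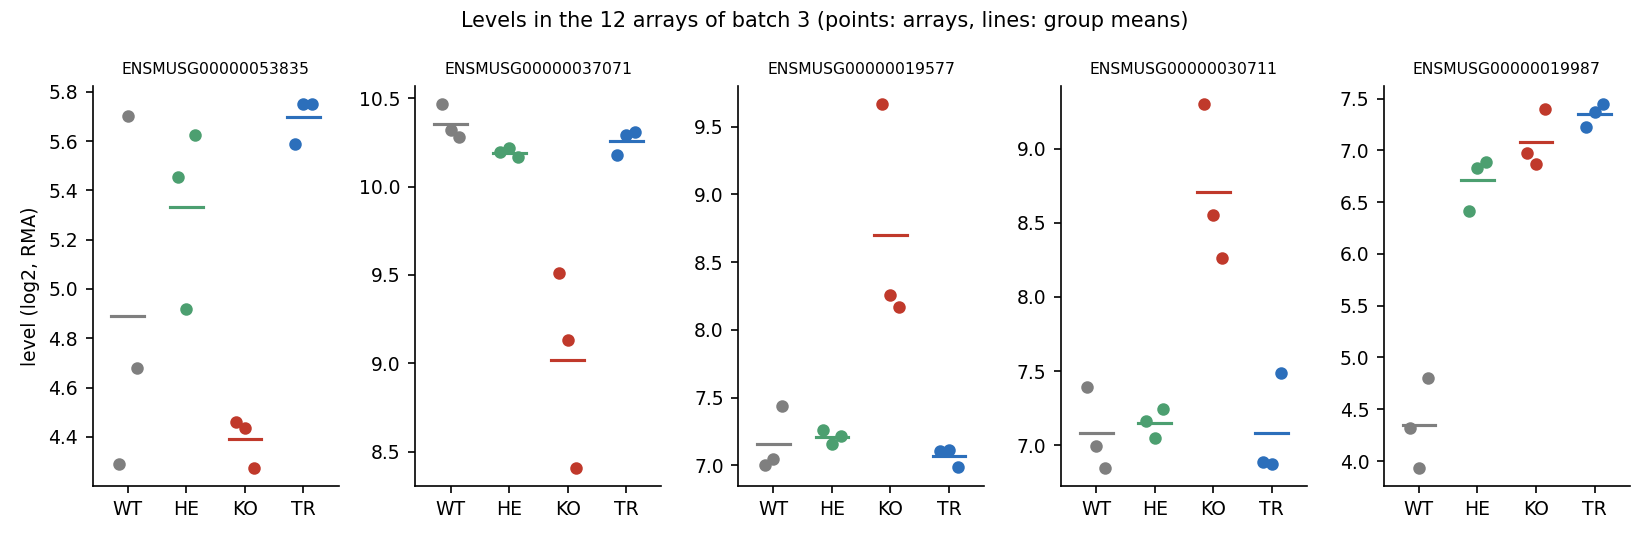
Levels (log2, vertical, own scale per panel) of 5 genes in the WT, HE, KO and TR arrays of batch 3, with a point per array and a line at the group mean. KO stands apart from TR in the first 4 panels, WT arrays of ENSMUSG00000053835 span the KO and TR levels, and ENSMUSG00000019987 sets WT apart from HE, KO and TR.

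In the genes that set TR apart from KO, the median difference from WT was smaller for TR than for KO. The comparisons that follow share KO or TR arrays with TR against KO, and the genes were chosen on those arrays, so their values are given only side by side. The 89 genes higher in TR had a median difference of 0.06 log2 from WT and 0.06 from HE. The same genes stood at -0.49 in KO minus WT. The 96 genes lower in TR had medians of -0.06 from WT and -0.08 from HE, and stood at 0.58 in KO minus WT. In limma, none of the 185 genes was called in TR against WT or in TR against HE. At an unadjusted p under 0.05, 18 of them (9.73%) passed against WT, where 3% of all genes did, and 12 (6.49%) against HE, where 2.41% did. Over all genes, TR against WT gave 1 call (0.00554%), TR against HE gave 0 (0%), and KO against WT gave 176 (0.975%). The TR, HE and WT arrays share the title letters EE, which no KO array carries. Whether TR lies near WT and HE through treatment or through what the letters mark cannot be told apart.

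For 134 of the 185 genes (72.4%) the TR mean lay inside the span of the 6 HE and WT arrays, and for 5 of 185 the KO mean did. Over all genes the TR mean was inside that span for 87.3% and the KO mean for 72.0%. These counts depend on the choice of genes, which used the same KO and TR arrays. Choosing genes by the distance of TR from KO favours a TR mean at the far end of that span. It also favours a KO mean outside the span, as does a small spread of the HE and WT arrays, which entered the fit. The 5 of 185 is therefore no separate evidence that KO departs from HE and WT.

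Untreated knockouts of another batch differed from their wild types in the opposite direction in most of these genes. Batch 1 holds 3 KO and 3 WT mice, 1 of each at postnatal days 13, 14 and 15, and none of them entered the choice of the 185 genes. Of the 89 genes higher in TR, 81 (91.0%) were below 0 in KO minus WT of batch 1, where 51.0% of all genes were. Their median there was -0.32 log2, with quartiles of -0.60 and -0.13. Of the 96 genes lower in TR, 91 (94.8%) were above 0, where 49.0% of all genes were, with a median of 0.58 and quartiles of 0.35 and 0.87. These medians moved with the set of genes called. When 1 TR or KO array was left out of the choice, they ran from -0.57 without TR replicate 2 to -0.12 without KO replicate 3 for higher genes. For lower genes they ran from 0.24 without KO replicate 3 to 0.82 without TR replicate 2. Limma called 38 of the 89 as lower in KO in batch 1 and 59 of the 96 as higher in KO, with 2.81% and 2.25% of all genes called in these directions and 5.06% in either. That fit had no term for age. With postnatal day as a block, added after seeing the data, limma called 44 and 70 of them and 4.32% and 3.40% of all genes in these directions.

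The 4 genes described above all had a call of this kind. In KO minus WT of batch 1, ENSMUSG00000019577 was 1.13 ± 0.212 log2 higher (SE, 3 arrays per group; limma adjusted p 0.00984) and ENSMUSG00000030711 was 1.69 ± 0.135 higher (limma adjusted p 5.50e-05). ENSMUSG00000037071 was lower, at -1.16 ± 0.266 (SE, 3 arrays per group; limma adjusted p 0.0270), and so was ENSMUSG00000053835, at -0.76 ± 0.146 (limma adjusted p 0.0108). Size in batch 3 did not fix size in batch 1. Among the 12 most lowered genes, the batch 1 difference ran from 0.01 to 2.16 log2, and among the 12 most raised ones from -1.29 to -0.08.

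**Figure D3:**
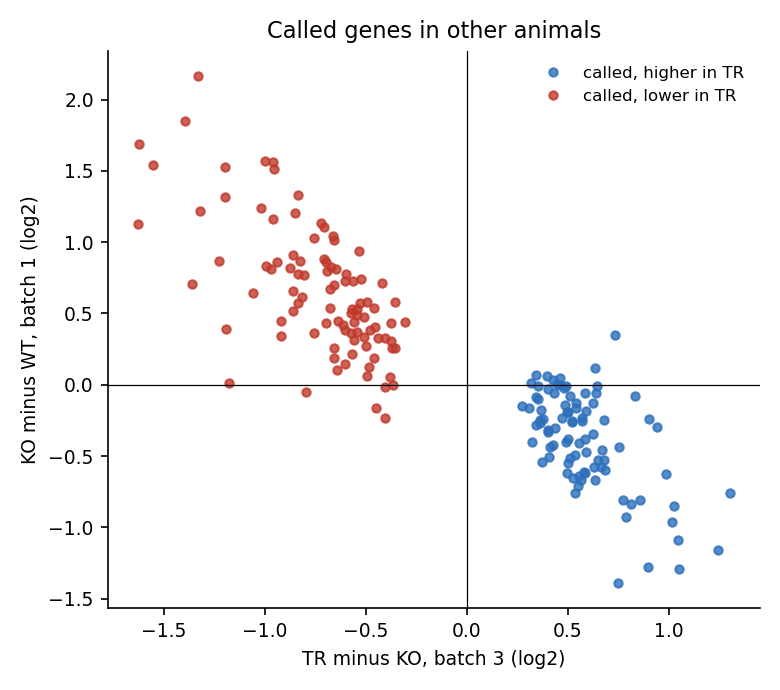
Each point is 1 of the 185 genes called in TR against KO, plotted by its TR minus KO difference in batch 3 (log2, horizontal) and its KO minus WT difference in the separate animals of batch 1 (log2, vertical). Of the 96 genes lower in TR (red), 91 lie above 0, and of the 89 higher genes (blue), 81 lie below 0.

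Batch 2 offers TR mice that were not used to choose the genes, next to HE mice, 3 of each at days 13 to 15. It holds no untreated knockout, so it shows only how far treated animals lay from heterozygotes. The 89 genes had a median TR minus HE difference of -0.06 log2 there, and the 96 genes one of 0.01. Of the 89 genes, 53 (59.6%) were below 0, where 49.0% of all genes were. Of the 96 genes, 49 (51.0%) were above 0, where 51.0% of all genes were. In limma, none of the 185 was called in batch 2, where 2 of all genes were (0.0111%). ENSMUSG00000019987 was among these 2, with TR above HE by 0.75 ± 0.104 log2 (SE, 3 arrays per group; limma adjusted p 0.0351). At an unadjusted p under 0.05, 12 of the 185 (6.49%) and 6.42% of all genes passed. ENSMUSG00000019577 differed by 0.19 ± 0.105 log2 and ENSMUSG00000030711 by 0.11 ± 0.276 (SE, 3 arrays per group), with 95% intervals of -0.03 to 0.42 and -0.49 to 0.70. The wider interval of the latter came with an HE spread of 0.806 log2 (SD, n = 3). At days 13, 14 and 15 its HE arrays read 6.70, 7.55 and 8.31 and its TR arrays 7.34, 7.67 and 7.87. The batch 2 fit had no term for age, and with 1 array per group and day, age and animal cannot be told apart.

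The sizes by single array are given next. In batch 3 the choice of genes fixes the direction of TR relative to KO. The distances from WT use the same arrays and are not independent of that choice. Against the WT mean of the batch, the 89 higher genes had a median of -0.52, -0.46 and -0.42 log2 in KO replicates 1, 2 and 3. In the TR arrays it was 0.05, 0.06 and 0.04. The 96 lower genes had medians of 0.63, 0.58 and 0.51 in the KO arrays and of -0.08, -0.10 and 0.02 in the TR arrays. Batch 1 had no part in the choice, and its KO arrays are 1 each of postnatal days 13, 14 and 15. In that order their medians were -0.27, -0.37 and -0.42 for the 89 genes and 0.53, 0.54 and 0.67 for the 96 genes. Age and animal cannot be told apart in them. KO replicate 1 was the KO array farthest from TR in 92 of the 185 genes, replicate 2 in 51 and replicate 3 in 42, where all genes gave 35.1%, 33.4% and 31.5%.

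**Figure D4:**
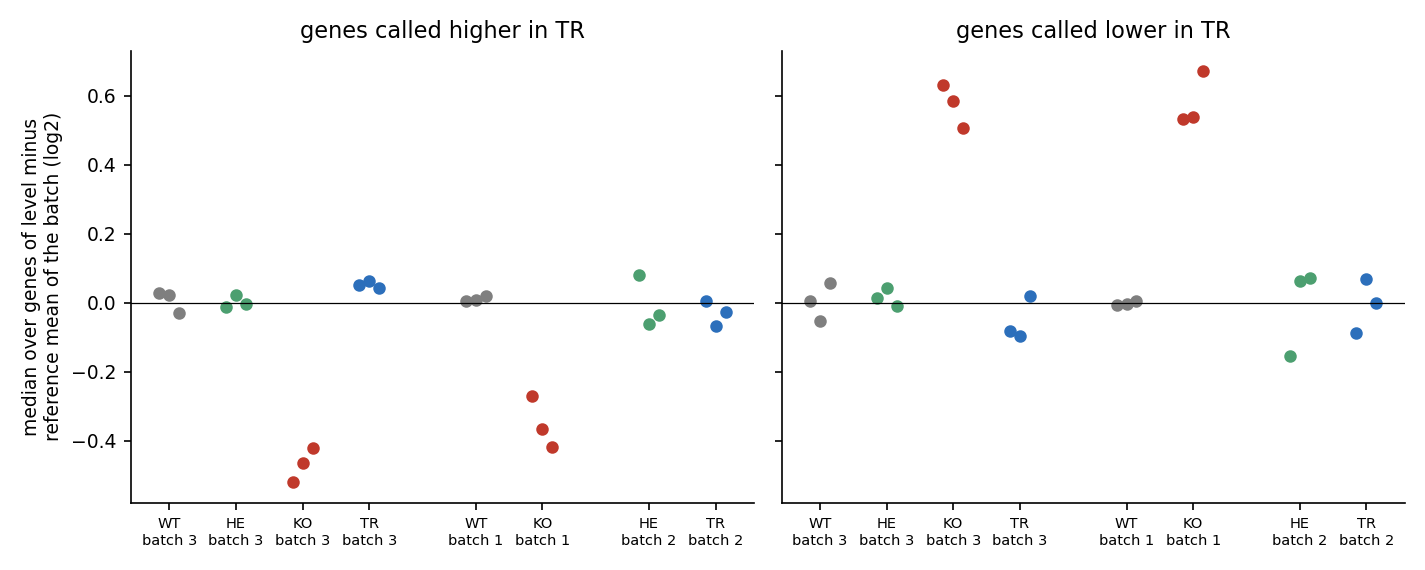
Each point is an array, placed by batch and group, and its height is the median over the 89 genes called higher (left) or the 96 called lower in TR (right) of its level minus the mean of the WT arrays (batches 1 and 3) or HE arrays (batch 2) of its batch, in log2. The KO arrays of batches 1 and 3 lie between -0.52 and -0.27 on the left and between 0.51 and 0.67 on the right, and the TR arrays lie near 0.

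The number of calls rose most when KO replicate 3 was left out. Without it, 802 genes were called, 469 higher and 333 lower in TR, and 184 of the 185 were among them. The omission added 618 genes, against 23 without KO replicate 1 and 38 without KO replicate 2. KO replicate 3 is the only array of the batch titled with the letters CC, and the other KO arrays carry BB. Whether the letters bear on these counts was not tested. Genes added by leaving out an array are chosen partly for the distance of that array from the other KO arrays, so their levels in batch 3 are no finding. In batch 1 they can be described. Of 380 genes added as higher in TR without KO replicate 3, 243 (63.9%) were below 0 in KO minus WT of batch 1, and of 238 added as lower 160 (67.2%) were above 0, where all genes gave 51.0% and 49.0%. Their medians there were -0.08 and 0.12 log2. Without KO replicate 1 the shares were 13 of 14 and 8 of 9, and without KO replicate 2 they were 18 of 19 in either direction.

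The spread between animals was somewhat wider in KO than in TR. The median SD of a gene over the arrays of a group was 0.124 log2 in KO, 0.112 in TR, 0.106 in WT and 0.101 in HE (n = 3 each), and 55.2% of genes had the larger SD in KO. The number of calls moved with single arrays. It was 114 without KO replicate 1, 139 without KO replicate 2, and 51, 45 and 103 without TR replicate 1, 2 and 3.

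**Figure D5:**
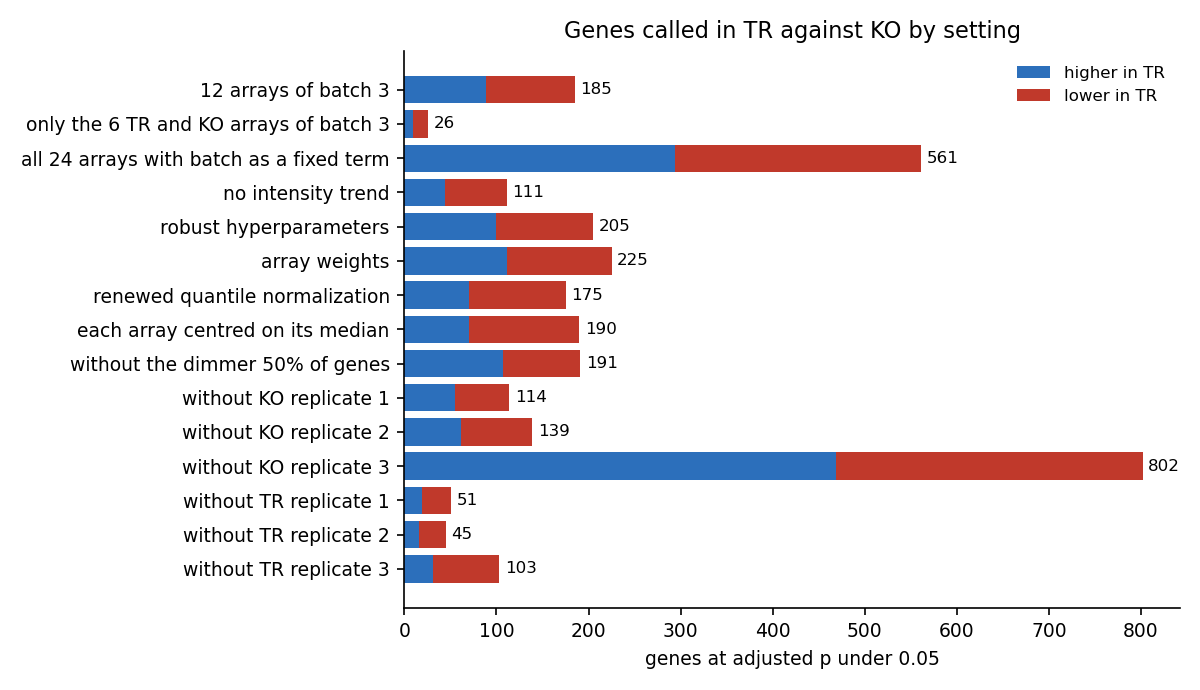
Bars give the number of genes at an adjusted p under 0.05 in TR against KO, split into higher (blue) and lower (red) in TR, for the fit of 12 arrays and for each alternative. The count runs from 26 with only the 6 TR and KO arrays to 802 without KO replicate 3.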

How the data were processed

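RNA of mouse frontal lobe was amplified from an oligo(dT) primer, labelled with biotin and hybridized to Affymetrix mouse arrays, per the labels' protocols, so levels reflect 3' ends of polyadenylated transcripts. The authors' deposited table holds log2 values made with affy and RMA, per the submitters' processing notes. Tool versions, how probes were assigned to genes, and any batch adjustment were not given in the sources used here. Levels were compared only within a batch. The labels call the batch a sequencing batch, although arrays were used.

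The deposited log2 values of the 12 arrays of batch 3 were fitted in limma 3.58.1 (R 4.3.3) with a mean per group, an intensity trend and no filter. Residual degrees of freedom were 8 and prior ones 6.37. Each test was two-sided, with Benjamini-Hochberg adjustment over 18057 genes. Batches 1 and 2 were fitted alone in the same way. The code was tested on simulated data. The number of arrays limits the precision. The labels name no litters, and they do not explain the title letters that separate KO from the other groups of batch 3. Replicate numbers follow the order of deposition. The comparison, the lists and the tests were chosen with earlier results of these data known. The naming rule took the 12 highest and 12 lowest called genes with a symbol. No ID had one, so 2 IDs in each direction are printed.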

Additional observations from a re-analysis of the deposited data

How the results depend on the processing

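Against 185 calls in TR against KO, a fit of the 6 arrays of these groups alone gave 26. The count was 561 with all 24 arrays and batch as a fixed term, and 111 without the intensity trend. Leaving out 1 array gave 45 to 802. Robust hyperparameters gave 205, array weights 225, renewed quantile normalization 175, centring each array on its median 190, and leaving out the dimmer 50% of genes 191. Calls shared with the 185 numbered 24 with the 6 arrays and 160 with all 24. Higher calls made up 48.1% of the 185, 36.8% after centring, 40.0% after quantile normalization, 39.6% without the trend, 34.6% with 6 arrays, 52.4% with all 24, 56.0% without the dimmer 50% of genes, and 30.1% to 58.5% when 1 array was left out. The 185 genes do not overlap between TR and KO, so their direction could not turn when an array was left out, and no result reversed in the other settings. ENSMUSG00000019577 had a limma adjusted p of 0.0713 with robust hyperparameters, 0.0558 without TR replicate 1 and 0.0649 without TR replicate 2. The cause of these moves was not tested. Medians of the called genes in batch 1 were recomputed as an alternative chosen after seeing the data. They kept their signs and ran from -0.57 to -0.12 and from 0.24 to 0.82 log2 when 1 array was left out. The planned medians of gene lists were not run, because no ID could be named. No paired analysis was possible because the labels give the TR and KO arrays of batch 3 no shared replicate numbers.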
